A study of Homo sapiens with 6 samples.

Results

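HSP70 proteins are the general folding chaperones of the cell, and the data described here are the mRNA levels of 10 genes of the family (HSPA1A, HSPA1B, HSPA1L, HSPA2, HSPA4, HSPA4L, HSPA6, HSPA8, HSPA9 and HSPA14) among the 23228 genes counted. They were taken by gene symbol from RNA-seq of HEC-1-A, an established human endometrial adenocarcinoma line. The 3 control libraries came from cells in medium without the drug (the methods name a vehicle, the labels the medium alone), and the 3 SMIP34 libraries from cells given SMIP34, a small-molecule inhibitor of PELP1, at 20 µM for 24 h. The family was singled out after the difference between these groups was known, since HSPA1A and HSPA6 were among the steepest increases of the whole data set, so the levels and fold changes of its members are given as a description, without a test. No source used here says whether the 3 replicates of a group were separate cultures, so spreads and p-values cover these samples and may be technical.

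An HSP70 protein holds an exposed hydrophobic stretch of an unfolded protein while it is bound to ADP. J proteins (HSP40) deliver the client and trigger the hydrolysis of ATP, and nucleotide exchange factors let the client go. Cells make a constitutive set at all times and an inducible set when unfolded proteins build up, which frees the transcription factor HSF1 to bind heat shock elements (HSE), repeated units of GAA and its complement TTC, before the start of its target genes. Among the members, HSPA1A, HSPA1B and HSPA6 are the inducible forms, HSPA8 (HSC70) is the constitutive form of the cytosol, HSPA9 (mortalin) works in the mitochondrial matrix, HSPA14 works at the ribosome with DNAJC2, HSPA4 and HSPA4L are HSP110-type proteins that act as exchange factors for the others, and HSPA1L and HSPA2 are best known from the testis.

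The sequences before the starts of the 3 inducible genes and of HSPA8 are shown because the inducible members moved most. HSPA8 moved little, and its sequence holds matches to the heat shock element as well. They were taken from RefSeq (GRCh38.p14), in which 9 of the 10 members had a start (HSPA14 was the exception), and each holds the 250 bases that end just before the start. Capitals mark an HSE pair, GAANNTTC or TTCNNGAA, and overlapping pairs run together into an HSE triplet, GAANNTTCNNGAA or TTCNNGAANNTTC, read on both strands.
HSPA1A, chr6:31815293-31815542, plus strand: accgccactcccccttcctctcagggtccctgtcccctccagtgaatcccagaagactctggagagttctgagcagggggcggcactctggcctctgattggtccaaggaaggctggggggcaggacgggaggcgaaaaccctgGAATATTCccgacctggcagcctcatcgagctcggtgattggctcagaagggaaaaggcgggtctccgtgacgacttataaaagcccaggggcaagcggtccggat
HSPA1B, chr6:31827488-31827737, plus strand: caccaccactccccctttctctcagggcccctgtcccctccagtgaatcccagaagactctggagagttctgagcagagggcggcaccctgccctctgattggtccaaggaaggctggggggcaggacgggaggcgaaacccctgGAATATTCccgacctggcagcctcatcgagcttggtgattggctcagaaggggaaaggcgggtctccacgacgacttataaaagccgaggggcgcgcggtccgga
HSPA6, chr1:161524290-161524539, plus strand: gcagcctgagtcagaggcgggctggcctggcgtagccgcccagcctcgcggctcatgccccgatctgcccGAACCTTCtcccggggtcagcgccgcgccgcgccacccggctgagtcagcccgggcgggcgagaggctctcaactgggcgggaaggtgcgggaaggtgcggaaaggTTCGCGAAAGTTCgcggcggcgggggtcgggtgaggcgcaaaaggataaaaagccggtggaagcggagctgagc
HSPA8, chr11:123062137-123062386, minus strand: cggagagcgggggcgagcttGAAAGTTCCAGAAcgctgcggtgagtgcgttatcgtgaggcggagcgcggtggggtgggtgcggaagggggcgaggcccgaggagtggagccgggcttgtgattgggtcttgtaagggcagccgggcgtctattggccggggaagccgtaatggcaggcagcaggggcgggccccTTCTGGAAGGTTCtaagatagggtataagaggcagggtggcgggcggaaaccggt

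HSPA1A and HSPA1B each had 1 HSE pair, from 106 to 99 and from 105 to 98 bases before the start, with a TATA box (TATAAA) at 30 and 29 bases and a pair of CCAAT boxes at nearly the same distances in both. HSPA6 had an HSE triplet from 74 to 62 bases before the start and a further pair at 180 bases, and neither a TATAAA nor a CCAAT match. HSPA8 had 2 HSE triplets, beginning 230 and 55 bases before the start, more exact triplets than any other member. An HSE pair was in 4067 of 35116 RefSeq windows of the same length (11.6%) and a triplet, which always contains pairs, in 155 (0.441%). TATAAA was in 10.7% of the windows and CCAAT in 32%, each counted on both strands. HSPA1L starts 260 bases from HSPA1A on the other strand, so its window holds the same HSE pair, TATA box and CCAAT boxes as that of HSPA1A. HSPA2, HSPA4 and HSPA9 had no HSE pair in the window, and 1 of the 3 annotated starts of HSPA4L had a pair. A match says only that these letters are present. Only exact units were searched, so elements with other letters in a unit would be missed, and the members cannot be ranked by their heat shock elements from these matches.

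**Figure D1:**
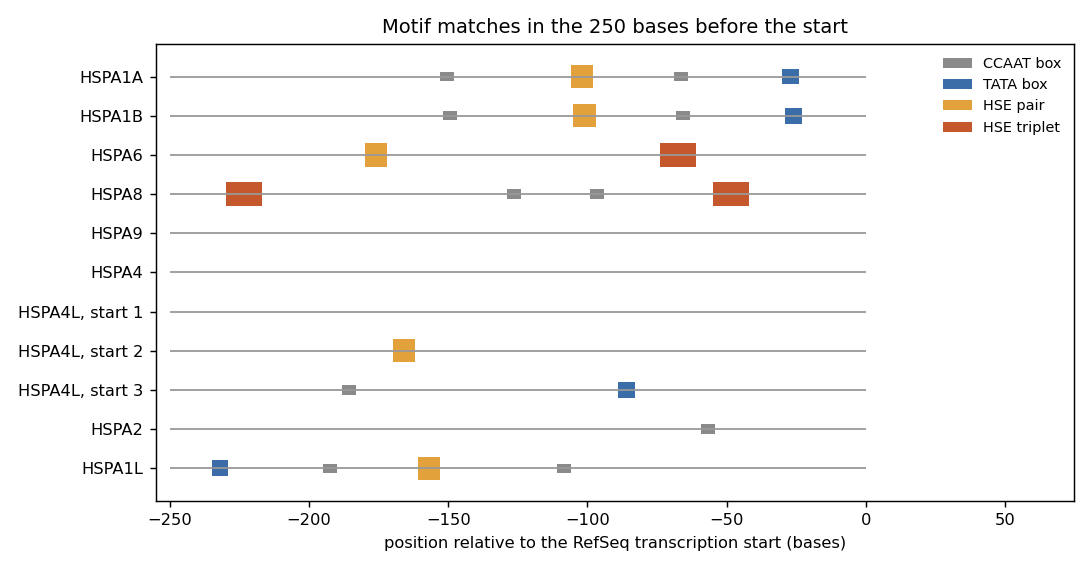
Matches to 4 motifs in the 250 bases before the RefSeq start of 9 members, with the distance from the start in bases on the horizontal axis and 1 line for each start. HSPA6 and HSPA8 hold HSE triplets (red), HSPA1A and HSPA1B hold 1 HSE pair (yellow) each, beginning 106 and 105 bases before the start, and HSPA9 and HSPA4 hold none of the 4 motifs.

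The libraries held between 19562711 and 22014834 counts on genes. Within a group, libraries differed beyond counting noise (chi-square per gene of 1.89 to 3.18), and libraries of different groups by 8.42 to 12.63. The 7 epithelial markers checked (keratins KRT8, KRT18 and KRT19, EPCAM, CDH1, CLDN4 and MUC1) summed to between 3601 and 3777 CPM (read counts scaled to a common library total), and the 6 markers of leukocytes, endothelium and stroma to between 3.04 and 4.71 CPM, most of it from COL1A1. Of the 10 members, 9 had enough counts to enter the comparison of 13408 genes, and HSPA1L did not.

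The inducible members were near the lowest of the family in control cells and had its largest fold changes. HSPA1A (chromosome 6 of hg19, from 31783291 to 31785719, 1 exon and no intron) stood at 0.649, 0.235 and 0.404 CPM in control replicates 1, 2 and 3, and at 10.2, 7.02 and 3.57 CPM in SMIP34 replicates 1, 2 and 3. The lowest treated library was above every control, and the treated libraries themselves spread widely, with SMIP34 replicate 1 the highest and replicate 3 the lowest. The log2 fold change was 4.03 with a standard error of 0.39, from means of 0.429 ± 0.208 and 6.93 ± 3.32 CPM (SD, n = 3 each). It ranked at position 1 of the 13408 genes, and since control replicate 2 held only 5.1 reads the size of the fold rests on few reads. In RNA from whole cultures, a rise in every cell and a steeper rise in a part of the cells cannot be told apart.

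HSPA1B, which codes for nearly the same protein as HSPA1A from a second intronless gene on chromosome 6 (31795512 to 31798031), was the higher of the pair. Its control libraries were at 4.84, 4.43 and 3.81 CPM and its treated libraries at 17.4, 13.8 and 11.2 CPM. The groups did not overlap, and the treated libraries stood in the same order as for HSPA1A. The log2 fold change was 1.70 with a standard error of 0.14, a rise from 4.36 ± 0.522 to 14.1 ± 3.13 CPM (SD, n = 3 each).

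HSPA6 (HSP70B′), a form that unstressed cells hardly make, is a single exon on chromosome 1, from 161494036 to 161496687. It was at 1.18, 1.38 and 0.962 CPM in control and at 11.7, 11.3 and 12.1 CPM in SMIP34-treated cells. Its treated libraries lay close together, unlike those of HSPA1A and HSPA1B. The means were 1.18 ± 0.209 and 11.7 ± 0.415 CPM (SD, n = 3 each), and the log2 fold change was 3.31 with a standard error of 0.15, ranked 3 of all genes. The coefficient of variation among treated libraries was 3.54% for HSPA6, 22.2% for HSPA1B and 47.9% for HSPA1A. With 257, 244 and 262 reads in the treated libraries, the small value of HSPA6 may be partly chance.

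**Figure D2:**
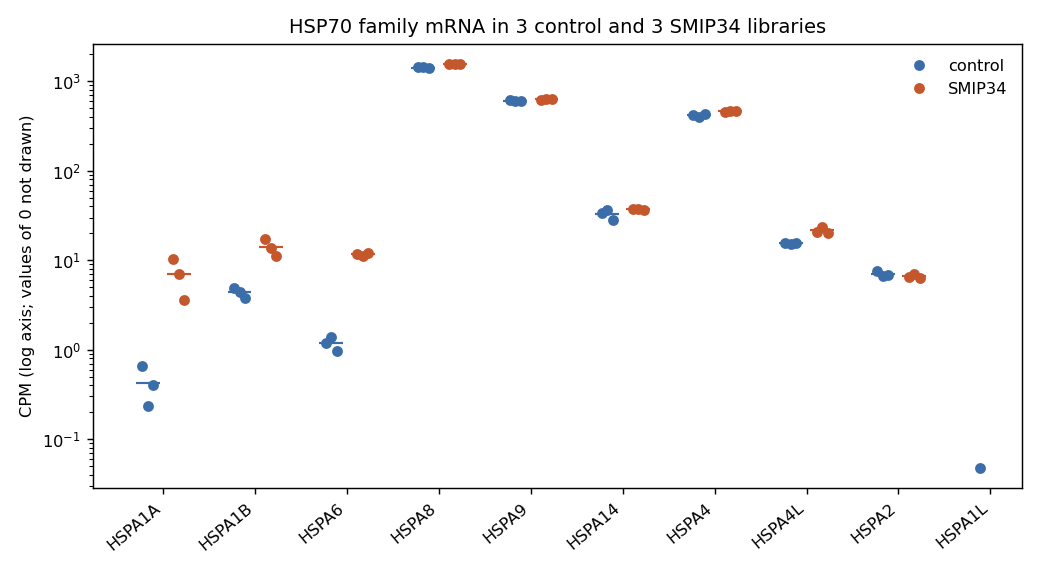
Level of each HSP70 member in CPM on a log axis, with 1 point for each of the 3 control (blue) and 3 SMIP34 (orange) libraries and a line at the mean; libraries at 0 are not drawn, which leaves 1 point for HSPA1L. The inducible members HSPA1A, HSPA1B and HSPA6 are low and far apart between groups, and HSPA8, HSPA9 and HSPA4 are high and close.

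How the reads of HSPA1A and HSPA1B were divided is uncertain. Over their exons in GRCh37, the primary chromosomes of the build of the files, 95.6% of 2383 aligned bases were identical, and 74.2% of all windows of 50 bases of HSPA1A, the read length in the labels, also occurred in HSPA1B. Only 25.8% of the windows of HSPA1A and 28.5% of those of HSPA1B stood at a single place. The files also annotate both genes on 4 alternative haplotypes of chromosome 6, so their listed exon lengths of 12145 and 12601 bases cover 5 copies of 2429 and about 2520 bases. Reads with several places were shared out as fractions above a minimum mapping quality, and the counts of HSPA1A were not whole in any of the 6 libraries. The part of these reads that was not counted is not known, so the levels of both genes may be too low.

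Added up, HSPA1A and HSPA1B came to 5.49, 4.66 and 4.21 CPM in the controls and 27.7, 20.8 and 14.8 CPM in the treated libraries. With both genes fitted as 1 row, the log2 fold change was 2.14 with a standard error of 0.17, between the values of the single genes. HSPA1A made up 11.8, 5.03 and 9.6% of the sum in control replicates 1, 2 and 3 (95% Wilson intervals from 7.24 to 19.7%, 2.13 to 11.1% and 4.68 to 16.9%), and 36.9, 33.7 and 24.1% in SMIP34 replicates 1, 2 and 3 (33.2 to 40.8%, 29.6 to 38.3% and 19.7 to 29.04%). The intervals cover counting error only, and they treat the rounded counts as single reads although shared reads were divided into fractions. They are therefore approximate. The share was higher in every treated library than in every control.

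A wide spread between replicates was general among genes annotated on alternative haplotypes. Among genes with a mean between 1 and 30 CPM, 77 were annotated on alternative haplotypes of any chromosome, those of chromosome 6 included. Their median coefficient of variation was 26.2% in control and 22.0% in treated libraries. Over 5614 genes annotated at one place it was 7.33 and 6.73%. The part of this spread in the differences between the treated libraries of HSPA1A and HSPA1B was not tested. HSPA6 has no such haplotypes. Its exon shares 49.7% of its windows of 50 bases with HSPA7, a pseudogene 98.3% identical to it over 2465 aligned bases, and its counts were whole in all 6 libraries. The counts of HSPA7 were whole in all 6 libraries too, although the files divide reads with several places into fractions. The counts thus show no sign that reads fitting both genes were included, and the level of HSPA6 may be too low as well. HSPA7 had 0, 4 and 1 counts in control and 14, 8 and 9 counts in treated libraries, too few to be tested.

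The constitutive members differed little in relative terms and were far more abundant. HSPA8 on chromosome 11 (122928200 to 122932901, 9 exons) was at 1427, 1428 and 1415 CPM in control and 1553, 1555 and 1555 CPM in SMIP34-treated cells. Replicates differed by under 1% of their mean, so a difference of 9.19% left the groups well apart. Its log2 fold change was 0.13 with a standard error of 0.024. HSPA9 on chromosome 5 (137890571 to 137911318, 17 exons) was at 616, 603 and 607 CPM in the control group and at 625, 636 and 630 CPM in the treated group, a difference of 3.52% (log2 fold change 0.050, standard error 0.025). The groups did not overlap, by a margin close to the spread within them. The value depended on the scaling, with 0.068 for library totals and 0.036 for upper-quartile scaling. HSPA14 on chromosome 10 (14 exons) was at 33.5, 36.6 and 28.2 CPM in the control group and at 37.1, 37.2 and 36.7 CPM in the treated group. Control replicate 3 was the low one, and the log2 fold change of 0.17 (standard error 0.065) was 0.076 without it and 0.26 without control replicate 2. Of the windows of 50 bases within exons, 77.5% stood at a single place for HSPA8, 93.9% for HSPA9 and 100% for HSPA14.

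Of the HSP110-type members, HSPA4 had a fold change within the range of the constitutive members and HSPA4L one between theirs and that of the inducible members. HSPA4 on chromosome 5 (132387662 to 132440709) was at 417, 403 and 426 CPM in the control group and at 456, 464 and 467 CPM in the treated group, and the groups did not overlap. Its log2 fold change was 0.16 with a standard error of 0.027. HSPA4L on chromosome 4 (128703453 to 128754526), which shares 68.8% of its aligned exon bases with HSPA4, was at 15.5, 15.3 and 15.6 CPM in the control group and at 20.7, 23.6 and 20.2 CPM in the treated group. This was a change of 39.0% (log2 fold change 0.48, standard error 0.074), just under the fold limit of 0.5. It was over the limit, at 0.50 and 0.52, without SMIP34 replicate 1 or 3, and at 0.40 without replicate 2.

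The members known from the testis did not follow the inducible ones. HSPA2, an intronless gene like HSPA1A, HSPA1B and HSPA6 (chromosome 14, 65007186 to 65009954), was at 7.62, 6.58 and 6.88 CPM in the control group and at 6.47, 6.98 and 6.38 CPM in the treated group. Its groups overlapped, and its log2 fold change was -0.084 with a standard error of 0.11 (-0.024 without control replicate 1 and -0.13 without control replicate 2). HSPA1L had 1 count in control replicate 3 and 0 in the other libraries, where a count of 0 allows up to 0.153 CPM (3 counts of the total of the library). Thus a product of HSPA1L was not detectable at this depth in either group, whereas HSPA1A, whose start is 260 bases away, was counted in every library; 97.5% of the windows of HSPA1L stood at a single place on the primary chromosomes, but it too is annotated on the 4 haplotypes.

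**Figure D3:**
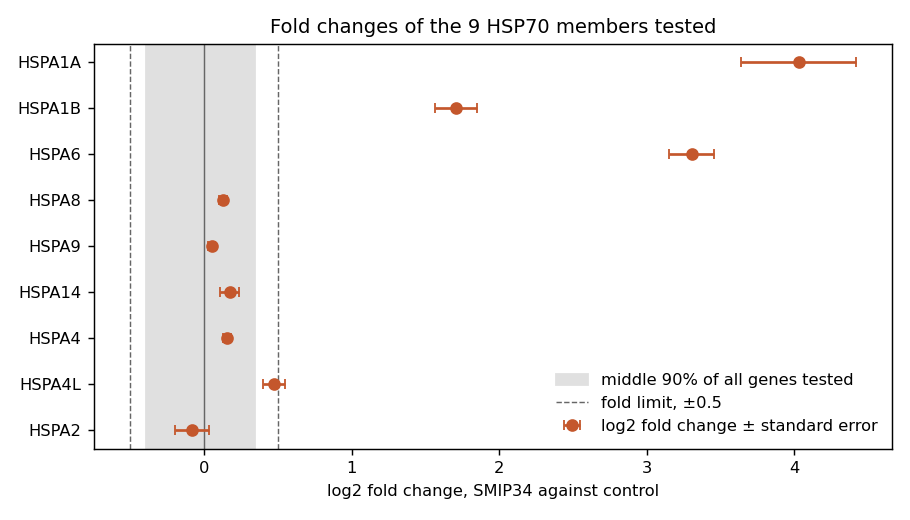
Log2 fold change of the 9 members tested (points, with the standard error as bars) from edgeR's quasi-likelihood fit of 3 SMIP34 and 3 control libraries, with the middle 90% of the 13408 genes tested in grey and the fold limit of 0.5 as dashed lines. HSPA1A (4.03), HSPA6 (3.31) and HSPA1B (1.70) lie far to the right, HSPA4L (0.48) lies between the grey band and the limit, and the other 5 lie inside the band.

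Genes were called in edgeR's quasi-likelihood fit when the adjusted p was below 0.05 and the log2 fold change was past 0.5 in either direction. By this rule 3 members were called, HSPA1A, HSPA1B and HSPA6, where 3.31% of all genes tested did so. At any fold, 7 of the 9 passed (34.6% of all genes), and HSPA2 and HSPA9 did not. In 8 every treated library was above every control (22.6% of all genes), while in 0 every treated library was below every control (21.9% of all genes). HSPA2 was the one that overlapped among those tested. The family was chosen on this comparison, so nothing is read from these counts. The median log2 fold change of the 9 members was 0.17, against -0.0022 over all genes.

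In CPM, rather than as a fold, HSPA8 differed most. Summed over the 10 members, the family stood at 2524, 2498 and 2505 CPM in the control group and at 2737, 2756 and 2743 CPM in the treated group, a rise of 236 CPM or 9.42% on means of 2509 ± 13.4 and 2745 ± 9.30 CPM (SD, n = 3 each). HSPA8 made up 131 CPM of the difference (55.4%), HSPA4 47.5 CPM (20.1%), HSPA9 21.4 CPM (9.06%) and the 3 inducible members together 26.8 CPM (11.3%). The inducible members took 0.265, 0.242 and 0.206% of the family's counts in control replicates 1, 2 and 3 (95% Wilson intervals from 0.224 to 0.315%, 0.203 to 0.286% and 0.172 to 0.250%), and 1.44, 1.16 and 0.980% in SMIP34 replicates 1, 2 and 3 (1.35 to 1.54%, 1.08 to 1.25% and 0.905 to 1.06%). The counted share rose 5.03-fold on average and stayed near 1% of the family. Only 25.8% of the windows of 50 bases of HSPA1A, 28.5% of HSPA1B and 50.3% of HSPA6 stood at a single place, against 77.5% for HSPA8. Reads with several places may in part be uncounted, and the intervals treat rounded fractional counts as single reads. The share of the inducible members and their part of the difference may therefore be too low.

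**Figure D4:**
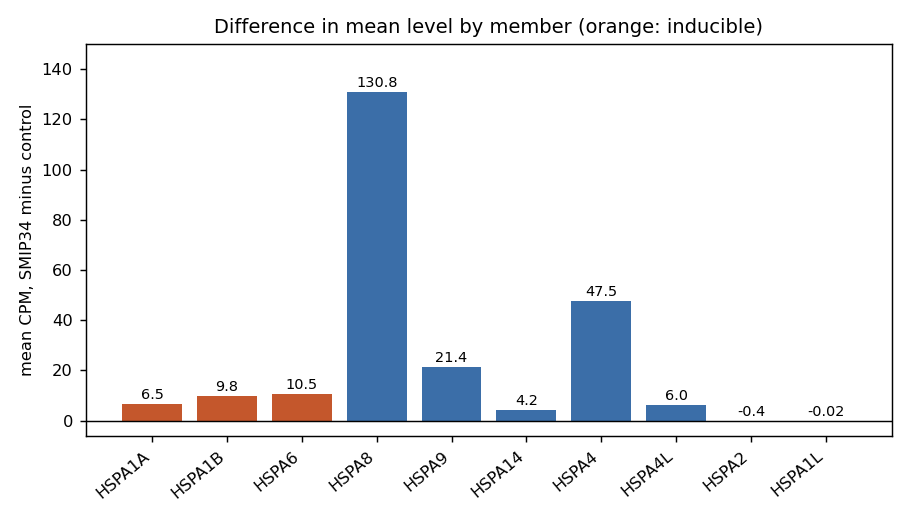
Difference in mean CPM, SMIP34 minus control, for each of the 10 members (bars, 3 libraries a group, inducible members in orange). HSPA8 adds 130.8 CPM, more than the 3 inducible members together (6.5, 9.8 and 10.5 CPM). The values of the inducible members may be too low, since much of their exon sequence occurs at several places.

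Per kilobase of exon at one place, HSPA8 was the most abundant member in control cells at 614 ± 3.04 CPM per kilobase (SD, n = 3), followed by HSPA9 at 174 ± 1.96, HSPA4 at 123 ± 3.50, HSPA14 at 18.2 ± 2.33, HSPA4L at 4.73 ± 0.0432, HSPA2 at 2.54 ± 0.195, HSPA1B at 1.73 ± 0.207, HSPA6 at 0.443 ± 0.0787, HSPA1A at 0.177 ± 0.0858 and HSPA1L at 0.00632 CPM per kilobase. The ranges of all neighbours in this order were apart in control cells. The full exon length was used, though 28.5% of the windows of 50 bases of HSPA1B, 50.3% of HSPA6 and 25.8% of HSPA1A stood at a single place. For HSPA2 and HSPA4L this was 100%. The levels of these inducible members, and with them their places in the order, may therefore be too low. In treated cells the first 5 places were the same, and below them HSPA1B (5.61 ± 1.24), HSPA6 (4.41 ± 0.156) and HSPA1A (2.85 ± 1.37 CPM per kilobase) had moved above HSPA2 (2.39 ± 0.117). There the ranges of HSPA4L and HSPA1B, of HSPA1B and HSPA6, and of HSPA1A and HSPA2 overlapped, so these neighbours did not differ beyond their spread.

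The genes that work with HSP70 were followed through 8 lists of 81 symbols without the members, of which 79 were in the files and 68 were tested. By the adjusted p alone (edgeR, below 0.05), 34 were higher (17.4% of all genes tested) and 7 lower (17.2% of all genes) in SMIP34-treated cells. Past the fold limit, 6 were higher (1.44% of all genes) and 1 was lower (1.87%). The median log2 fold change of the 68 genes was 0.10, against -0.0022 over all genes. The lists were chosen with earlier results of these data known, so their counts are given as a description. Passing also depends on abundance. HSPA13, at 81.3 CPM in control, passed at a log2 fold change of 0.12, and HSPB8, at 3.42 CPM, did not at 0.30. The listed genes were not matched in level to all genes tested. The shares over all genes, 17.4% higher and 17.2% lower, stand beside the counts of every list below.

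Among the other proteins of the HSP70 superfamily, HSPH1 (HSP105), the inducible HSP110 of the cytosol and nearest relative of HSPA4 and HSPA4L, was at 33.9, 31.7 and 30.3 CPM in the control group and at 54.9, 57.7 and 58.9 CPM in the treated group. Its groups were far apart, with a log2 fold change of 0.84, with edgeR's adjusted p at 6.77e-13 and a standard error of 0.051. HSPA5 (BiP), the HSP70 of the endoplasmic reticulum, rose by 0.52 on the log2 scale, with means of 477 ± 5.98 in control cells and 684 ± 2.32 CPM with SMIP34 (SD, n = 3 each; edgeR's adjusted p = 5.88e-15). In CPM its rise of 207 was close to that of the 10 members together. HYOU1, the HSP110-type partner of HSPA5, had a log2 fold change of 0.35 (adjusted p = 3.51e-09), and HSPA13, a microsomal form, of 0.12 (adjusted p = 0.0208), which did not pass with DESeq2 (adjusted p = 0.0542), with gene length offsets (adjusted p = 0.0523) or without control replicate 2 or SMIP34 replicate 1 or 2 (log2 fold changes of 0.091, 0.12 and 0.087). HSPA12A was at 0.12 with an adjusted p of 0.416.

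Of the 10 nucleotide exchange factors tested, 3 were higher (17.4% of all genes), 1 was lower (17.2% of all genes) and 6 did not pass. BAG3, an HSF1 target that couples HSP70 to autophagy, was at 34.4, 32.6 and 34.9 CPM in the control group and at 50.0, 49.2 and 47.9 CPM in the treated group, a log2 fold change of 0.53 (edgeR's adjusted p = 3.00e-09). BAG1, which couples HSP70 to the proteasome, was at 118 ± 1.32 CPM in control and lower, at 96.2 ± 2.55 CPM, in treated cells (SD, n = 3 each), which is -0.30 on the log2 scale (edgeR's adjusted p = 1.52e-07). The largest log2 fold change of the list was that of BAG2 at 1.005, from 0.516 to 1.04 CPM (edgeR's adjusted p = 0.0196). BAG2 did not pass with DESeq2 (adjusted p = 0.0741) or without any one of control replicates 1 and 2 and SMIP34 replicates 1 and 2. BAG6 (log2 fold change 0.67, adjusted p = 0.00063) lies among the chromosome 6 haplotypes like HSPA1A, and its value was 0.41 without SMIP34 replicate 1. GRPEL1, the exchange factor of HSPA9, had a log2 fold change of 0.11 (adjusted p = 0.0514) and passed with library totals (0.13), with gene length offsets (0.18) and without SMIP34 replicate 2 (0.14).

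Of the 12 J proteins tested, 10 were higher (17.4% of all genes), 1 was lower (17.2% of all genes) and 1 did not pass. Their median log2 fold change was 0.20. DNAJB1 (HSP40), the inducible partner of HSPA1A, had means of 145 ± 4.33 CPM without and 208 ± 1.41 CPM with SMIP34 (SD, n = 3 each), higher by 0.52 on the log2 scale (edgeR's adjusted p = 5.85e-13). DNAJB9, a J protein of the endoplasmic reticulum, was at 0.47 and DNAJB2 at 0.43 on the same scale. DNAJB12, a J protein of the endoplasmic reticulum membrane, was the one that fell, with a log2 fold change of -0.18 (adjusted p = 0.000913). The partners of HSPA14 and HSPA9 had the lowest median of the lists, -0.082. Of these, 1 was higher (17.4% of all genes), 3 were lower (17.2% of all genes) and 5 did not pass. DNAJC2, the J protein that works with HSPA14 on the ribosome, was at 0.13 (adjusted p = 0.0913). For DNAJC2 the value was 0.051 without control replicate 3 and 0.20 without control replicate 1, where it passed (adjusted p = 0.0136), as it did with library totals and with gene length offsets. DNLZ, which keeps HSPA9 soluble, was at -0.34 (adjusted p = 0.000777).

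HSP90 and the co-chaperones that bridge it to HSP70 held 8 higher (17.4% of all genes), 1 lower (17.2% of all genes) and 3 that did not pass among 12 tested. The median log2 fold change of this list was 0.20. HSP90AA1, the inducible HSP90 of the cytosol, was at 1567 ± 29.1 CPM without and 1972 ± 44.5 CPM with SMIP34 (SD, n = 3 each), higher by 0.33 on the log2 scale (edgeR's adjusted p = 1.01e-10), and CHORDC1 had the largest of the list at 0.45. TRAP1, the HSP90 of mitochondria, was the one lower, at -0.095 (adjusted p = 0.0115), a call that was lost with gene length offsets (-0.064) and without control replicate 2 (-0.072) or SMIP34 replicate 2 (-0.082). The mRNA of HSF1 itself was at 133, 136 and 139 CPM in the control group and at 131, 138 and 132 CPM in the treated group, with overlapping groups, a log2 fold change of -0.022 and an adjusted p of 0.656. HSF2 was at 0.30 (adjusted p = 0.000811) and HSF4 at -0.14 (adjusted p = 0.432), which was -0.26 without control replicate 2 and -0.017 without control replicate 3. Among the small heat shock proteins 4 of 10 were tested. HSPB1 did not pass (log2 fold change 0.067, adjusted p = 0.269), HSPB8 was at 0.30 (adjusted p = 0.128), and CRYAB (alpha B crystallin) was lower, at 2.90 against 4.11 CPM, or -0.505 on the log2 scale (edgeR's adjusted p = 0.0219). CRYAB did not pass with DESeq2 (adjusted p = 0.0643), with gene length offsets (-0.39, adjusted p = 0.0826) or without control replicate 3 or SMIP34 replicate 2 (-0.37 and -0.40), and was under the fold limit with library totals (-0.49). Of 12 other genes with heat shock factor binding, among them the subunits of the TRiC chaperonin, 7 were higher (17.4% of all genes) and 5 did not pass. DEDD2 was the highest at 0.38 (adjusted p = 3.44e-06) and SERPINH1, the collagen chaperone, the lowest at -0.021 (adjusted p = 0.651).

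**Figure D5:**
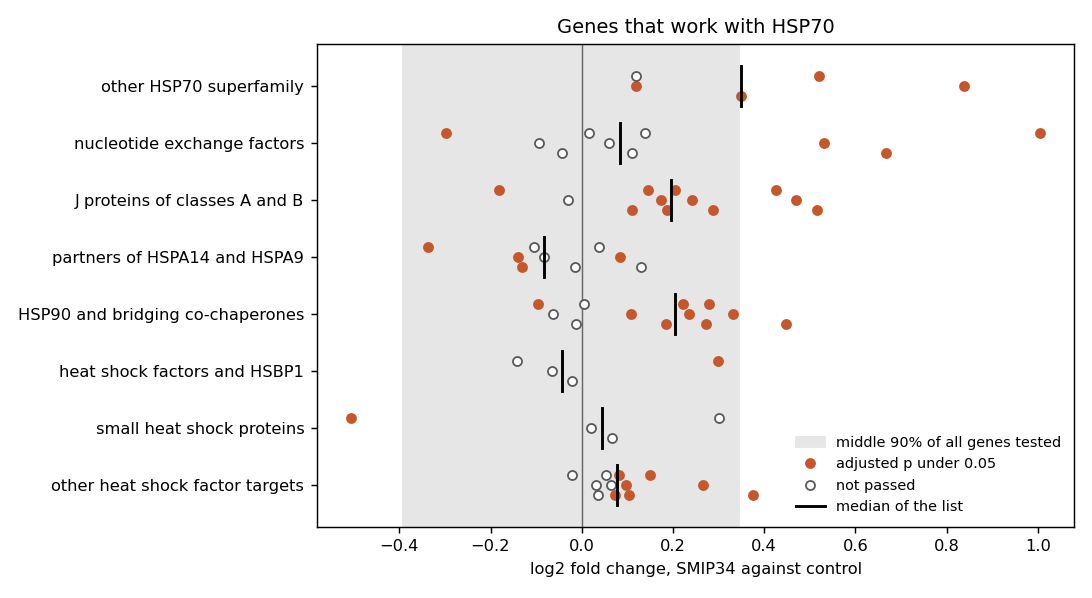
Log2 fold change of the 68 genes tested in 8 lists of genes that work with HSP70 (filled points had an adjusted p below 0.05 with edgeR, open points did not), with the median of each list as a black line and the middle 90% of all genes tested in grey. The J protein and HSP90 lists have medians near 0.20, and the partners of HSPA14 and HSPA9 have a median of -0.082.

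Genes outside the 10 members were ranked by how near their pattern over the 6 libraries was to that of a member. The measure was the root mean square distance of log2 CPM from the control mean, among 12596 such genes whose mean reached 1 CPM. Nearest to HSPA6 were ASMTL (distance 0.139), the AP-1 gene FOSB (0.284), the chemokine gene IL8 (0.725), PLA2G4C (0.909) and AKAP17A (1.05). ASMTL and AKAP17A are each annotated at 2 places and have uncertain counts. The genes nearest to HSPA8 were MCMBP (0.0067), ACTR2 (0.0088), UBE4B (0.0088), SERP1 (0.0091) and HSPA12A (0.0124), all with an estimated difference of the same small size. For HSPA12A, at 7.18 CPM in control, the log2 fold change of 0.12 had a standard error of 0.106 and did not pass (edgeR's adjusted p = 0.416). With 12596 genes ranked on 6 libraries, some may be near by chance. Whether near genes share anything beyond this pattern was not tested.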

How the data were processed

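RNA was sequenced from 3 control and 3 SMIP34-treated HEC-1-A samples, grouped by their treatment labels. The authors deposited estimated counts, in which reads are split into fractions, without normalization. Per the file headers, featureCounts v1.5.0-p1 summed reads over the exons of UCSC hg19 genes, by strand, at a minimum mapping quality of 2, dividing reads with several places or genes into fractions. The submitters' processing notes name HISAT2, while the study's methods name tophat2 and HTSeq. Exon lengths, deposited in bases and used as no other measure, were reduced to one place.

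Counts were rounded. Genes with few counts were removed with filterByExpr of edgeR 4.0.16 (R 4.3.3), libraries were scaled by TMM, and the groups were compared with the quasi-likelihood test (newer method set explicitly), with Benjamini-Hochberg adjustment over 13408 genes and the study's thresholds of 0.05 and 0.5. Standard errors were derived from the F statistic. Log2 CPM had a prior count of 2. The procedure was tested on simulated data.

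The members and gene lists were chosen with earlier results of these data known. All 10 members are named, and in each list the genes past both thresholds with a mean of at least 1 CPM, the highest, the lowest, and 9 direct partners or relatives (HSPH1, HYOU1, HSPA5, HSPA13, HSF1, BAG3, DNAJB1, DNAJC2 and GRPEL1); DNAJB2, DNAJB9, HSP90AA1, HSPB1 and HSPA7 were named after their values were seen. Promoters came from RefSeq (GRCh38.p14), and exon windows were matched on both strands of GRCh37 without its haplotypes. Alternatives were 3 scalings, 2 filters, DESeq2 1.42.0, limma voom (3.58.1), the legacy quasi-likelihood method, truncation of fractions, gene length offsets (loess span 0.3), the replicate number as a block, HSPA1A and HSPA1B as 1 row, and leaving out each library.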

Additional observations from a re-analysis of the deposited data

How the results depend on the processing

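Over the 12 alternative fits and the 6 fits without 1 library, the 9 members tested kept the direction of their log2 fold changes, except that HSPA1A and HSPA1B had no values of their own in the fit that made them 1 row. The number past both thresholds stayed at 3, except that HSPA4L made it 4 without SMIP34 replicate 1 or 3, and that it was 2 where HSPA1A and HSPA1B were 1 row. At any fold it lay between 6 and 8, with the 8 from libraries scaled by their totals. Without 1 library the log2 fold change lay between 3.64 and 4.48 for HSPA1A, 1.52 and 1.85 for HSPA1B, 3.18 and 3.45 for HSPA6 and 0.076 and 0.264 for HSPA14. Over the fits with all libraries it lay between 0.113 and 0.157 for HSPA8 and between 0.036 and 0.068 for HSPA9. The rise of the summed family was 270 CPM (269.94) when libraries were scaled by their totals and 211.15 CPM with upper-quartile scaling, against 236 CPM, and lay between 230.84 and 243.77 CPM without 1 library. The inducible share rose by 0.957 percentage points, by 0.577 with HSPA1A and HSPA1B only, and by 0.835 to 1.06 without 1 library. Genes called past both thresholds over the whole table numbered 444, 323 with DESeq2 and between 389 and 464 in the other fits. Pathway genes past both thresholds numbered 7, and between 5 and 7 in the alternatives: HSPA5 fell below the fold limit with gene length offsets (0.497), DNAJB1 without control replicate 3 (0.493), BAG6 without SMIP34 replicate 1 (0.405) and CRYAB with library totals (-0.487), and CRYAB and BAG2 lost their adjusted p-value in several fits. HSF1 and SERPINH1, which did not pass, changed sign with gene length offsets (0.019 and 0.010). The deviations of same-numbered samples correlated at -0.028, 0.0334 and -0.0111, which gave no ground for pairing, and the replicate block left 453 genes, 3 members and 7 pathway genes past both thresholds. The cause of these shifts was not tested. Few reads limit HSPA1A in control, HSPA1L and HSPA7.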
